A study of Homo sapiens with 6 samples.

Results

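The replication-dependent histone genes were examined in poly(A)-selected RNA of K562 cells, class by class. Members were all genes of the count tables whose symbol names a clustered H1, H2A, H2B, H3 or H4 gene (HIST1 to HIST4) and whose raw counts summed to 30 or more over the 6 libraries. The symbol pattern matched 89 genes, of which 49 were members: 5 H1, 12 H2A, 17 H2B, 5 H3 and 10 H4 genes. Of these, 38 lie in the HIST1 cluster on chromosome 6, 9 in HIST2 and 2 in HIST3 on chromosome 1, and 3 are annotated as pseudogenes (HIST1H3PS1, HIST2H2BD and HIST2H2BC). The other 40 genes had fewer than 30 counts, and 18 of them had 0. HIST4H4, the sole HIST4 gene, was among the genes at 0. At the threshold, HIST2H4B and HIST2H2AA4 were just inside with 36 counts each, and HIST2H3D with 27 and HIST1H2BPS2 with 26 were just outside. All 49 members passed the filter on low values, a mean of at least 5 normalized counts, and were tested. Of these, 40 had 30 counts or more in the WT libraries alone, and 8 reached the threshold by themselves only in the Delta-TRRAP libraries.

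K562 is a human cell line from a chronic myeloid leukaemia. In all 6 libraries the cells' own EP400 gene was homozygously tagged with a dTAG degron. The cells had received 500 nM dTAGV-1, which recruits a ubiquitin ligase to the degron, for 24 h. EP400 is the scaffold and ATPase subunit of the TIP60 acetyltransferase complex. The groups differed in the EP400 transgene placed at the AAVS1 site: 3 libraries carried wild-type EP400 (WT) and 3 carried EP400 lacking the SANT and HD region that holds TRRAP (Delta-TRRAP). Each line was 1 clone, so clone and genotype cannot be told apart, and p-values measure the spread between libraries of 1 clone. The comparison asks how the histone genes depend on the attachment of TRRAP to the complex.

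Replication-dependent histone genes supply the core histones H2A, H2B, H3 and H4 and the linker histone H1 while DNA is copied. Unlike other mRNAs of animals, theirs as a rule have no poly(A) tail: they end just after a conserved stem-loop, which SLBP binds and at which the U7 snRNP directs cleavage. When a polyadenylation signal further downstream is used, the same genes yield polyadenylated mRNA, which is known to increase when cells leave the cycle or differentiate. Poly(A) selection keeps the polyadenylated molecules, so a change in the amount of a gene's RNA and a change in the share that is polyadenylated cannot be told apart here. In bulk RNA, more cells that make a transcript and more transcript per cell cannot be told apart either.

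The stem-loop is shown because it marks the end of the mRNA form that poly(A) selection misses. It was searched as 16 bases with a GG at the start, a CC at the end, T at positions 6, 7 and 9, A at position 11 and at least 5 of 6 stem base pairs around a loop of 4, in the 200 bases after the stop codon, or in the whole gene and 200 bases after it where no stop codon was annotated (hg38, read on the gene's strand). Among the 49 members 48 had a match, and HIST1H3PS1 had none. The sequences of 3 members stand here, with HIST1H1C in the form most common among all members, HIST1H4H in that most common among H4 genes, and the stem arms in capitals and the loop in lower case.
HIST1H1C, linker histone H1, chr6:26055744-26055759: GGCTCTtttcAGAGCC
HIST1H2BD, core histone H2B, chr6:26158587-26158602: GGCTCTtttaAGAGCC
HIST1H4H, core histone H4, chr6:26285131-26285146: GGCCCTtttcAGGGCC
The form of HIST1H1C was found in 26 members: 4 H1, 9 H2A, 10 H2B and 3 H3 genes. The form of HIST1H2BD, with another last loop base, was found in 5 H2B genes and in HIST1H1T. All 10 H4 members had a GGCCCT arm, 6 of them with the loop of HIST1H4H and 4 with a loop of tttt.

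The letters AATAAA of a polyadenylation signal stood within 1000 bases after the stem-loop in 23 of the 48 members (47.9%). They stood in 44.3% of 3044 other protein-coding genes of chromosomes 1 and 6 in the same length after their annotated end. That is a rate for DNA past the gene, and not for the signals of those genes themselves. In HIST1H1C and HIST1H2BD AATAAA began 13 bases after the stem-loop, and in HIST2H2AA3 and HIST2H2AA4 14 bases after it. In GENCODE release 44 the gene model reached at least 100 bases past the stem-loop in 16 of the 46 members that could be placed there, and in 2 of the 29 genes under 30 counts that had a match. The 16 include HIST1H2AC, HIST1H2BC, HIST2H2BE, HIST1H3H and HIST1H4H. HIST1H1C and HIST1H2BK, the members with the highest mean counts, are not among the 16. No file used here shows where the 3' ends of the RNA molecules lay.

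The histone genes took 0.0666% to 0.0716% of all gene counts in the WT libraries and 0.263% to 0.278% with Delta-TRRAP. Each library held 35076835 to 42616061 gene counts, and mitochondrial genes took 3.18% to 3.71% of them for WT against 5.07% to 6.24% for Delta-TRRAP. EP400 itself, counted from the tagged copies and the transgene together, had 4924 to 5425 normalized counts in the WT libraries, against 4350.1 to 6694 with Delta-TRRAP, which does not separate the alleles. The labels call the cells lymphoblast: all 8 erythroid markers were expressed and summed to 35410 to 37590 normalized counts (WT) and 40690 to 43480 (Delta-TRRAP), whereas 4 B lymphoid markers summed to 40.0 to 46.2 and 24.4 to 41.1 with MS4A1 at 0, and 4 T lymphoid markers to 455 to 463 and 388 to 435 with CD8A at 0. Most of the T lymphoid sum was CD3D, with means of 437 (WT) and 384 (Delta-TRRAP). The 6 fibroblast markers summed to 35.9 to 57.5 (WT) and 908 to 952 (Delta-TRRAP), and COL1A2 averaged 1.63 and 868. PDGFRB averaged 1.67 (WT) and 9.25 (Delta-TRRAP), COL3A1 0.68 and 9.28, COL1A1 28.9 and 29.8 and DCN 11.7 and 8.86, and LUM was at 0. The part of these differences in the histone results was not tested.

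Normalized counts are counts scaled to a common library size with TMM factors. Log2 fold changes are positive where Delta-TRRAP was higher, and a gene was called when edgeR's quasi-likelihood test gave an adjusted p of 0.01 or less and the fold change was at least 2. By this rule 34 of the 49 members (69.4%) rose in Delta-TRRAP, while 16.2% of the 19114 genes tested were called higher. No member was called lower by edgeR, DESeq2 or limma-voom, against 6.34% of all genes. At an unadjusted p of 0.05, edgeR placed 1 member lower and 44 higher, and DESeq2 and limma-voom placed 0 lower. On the adjusted p alone 38 members were higher, where 29.6% of all genes were, and 11 did not pass. Of the 40 members with 30 counts or more in WT alone, whose membership did not depend on Delta-TRRAP, 29 were called higher. In 43 of 49 members the 3 WT libraries did not overlap the 3 Delta-TRRAP libraries, as in 71.1% of all genes tested. The median log2 fold change of the members was 1.61, with a range of -0.50 to 5.47, beside 0.006 for all genes tested. Under scaling by library size alone the median of all genes was 0.168.

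The rises were found in every class and in the clusters on both chromosomes. Of the H2B genes 16 of 17 were called higher (median log2 fold change 1.75), and the remaining one, HIST1H2BJ, passed the adjusted p threshold. The counts were 7 of 12 for H2A (median 1.72), 6 of 10 for H4 (median 1.53), 3 of 5 for H3 (median 1.90) and 2 of 5 for H1 (median 0.83). By cluster, 26 of 38 HIST1, 7 of 9 HIST2 and 1 of 2 HIST3 members were called higher. These counts include 5 called members that reached 30 counts by themselves only in the Delta-TRRAP libraries. They are HIST1H1T, HIST2H2AA3, HIST2H2AA4, HIST1H2BB and HIST1H3E, and their membership depended on Delta-TRRAP. In each class other members were called higher as well. Among the 24 members averaging 100 normalized counts or more, 22 were called higher and all 24 passed the adjusted p threshold upward. Over all genes of that level, 6.79% were called higher, 6.22% were called lower and 26.5% passed upward on the adjusted p alone. Of the 25 members below that level, 12 (48.0%) were called higher, where 30.3% of all genes below it were. The 12 include the 5 called members whose membership depended on Delta-TRRAP, so these 48.0% are not free of that choice.

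**Figure D1:**
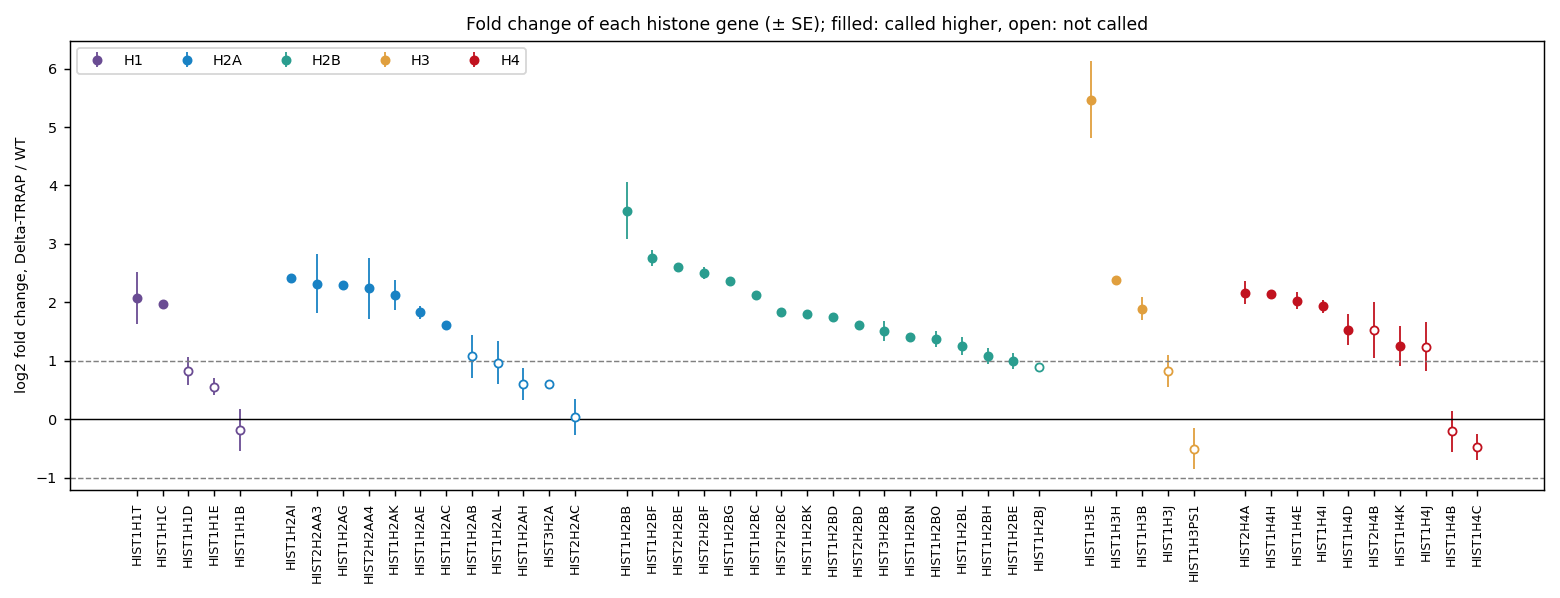
Log2 fold change of Delta-TRRAP over WT for each of the 49 histone genes, ordered within class, with bars of 1 standard error; filled points were called higher and open points were not called. Dashed lines mark a fold change of 2 in each direction. The 34 filled points all lie above 1, and 4 points lie below 0.

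The summed level of each class was higher in Delta-TRRAP, and is given as a description with no test. Summed H2B counts went from 11043 ± 358 in WT to 37814 ± 242 in Delta-TRRAP (SD, n = 3), a ratio of 3.42. Summed H1 counts went from 8264 ± 357 to 32304 ± 1813, a ratio of 3.91, and HIST1H1C alone held 98.7% and 99.5% of them. Summed H2A counts went from 7507 ± 312 to 23182 ± 945, a ratio of 3.09. The H3 and H4 classes were smaller by counts. H3 went from 778 ± 25.3 to 3880 ± 244 (ratio 4.99) and H4 from 794 ± 52.2 to 3065 ± 67.9 (ratio 3.86). In no class did a WT library reach a Delta-TRRAP library.

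**Figure D2:**
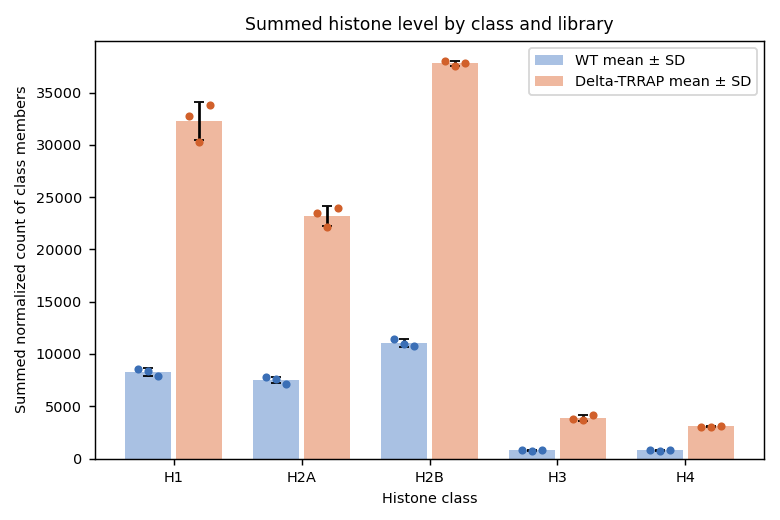
Summed normalized counts of the members of each histone class; bars are means over 3 libraries with SD and points are single libraries. The 3 Delta-TRRAP libraries lie above the 3 WT libraries in each class, with ratios of 3.09 for H2A to 4.99 for H3.

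The share of each class in the members' counts was also compared. H2B genes held 38.6% to 39.3% of the members' counts in the WT libraries and 36.8% to 38.8% with Delta-TRRAP. The H2A share was 26.2% to 26.7% and 22.9% to 23.3%. The H1 share was 28.8% to 29.4% and 31.3% to 32.9%, the H3 share 2.67% to 2.82% and 3.74% to 4.04%, and the H4 share 2.65% to 2.89% and 2.97% to 3.16%. The H2A share was thus lower in every Delta-TRRAP library, and the H1, H3 and H4 shares were higher, without overlap. These shares depend on gene length and on which molecules are polyadenylated, and are not the stoichiometry of the proteins.

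Linker histones bind the DNA that enters and leaves the nucleosome. HIST1H1C (H1.2), the member with the most counts per kilobase of exon, had 8483, 8225 and 7771 normalized counts in the WT libraries and 32640.1, 30122 and 33669 in the Delta-TRRAP libraries. Every Delta-TRRAP library was more than 3 times the highest WT library, and the log2 fold change was 1.98 ± 0.06 (SE, edgeR adjusted p = 2.42e-13). The other somatic H1 genes were measured at far fewer counts. HIST1H1E (H1.4) had 57.4, 74.3 and 68.8 in WT and 95.8, 111 and 88.7 in Delta-TRRAP, a log2 fold change of 0.56 ± 0.15 (edgeR adjusted p = 0.00385). HIST1H1D (H1.3) had 18.4, 20.3 and 16.4 against 26.4, 36.3 and 35.9, a log2 fold change of 0.83 ± 0.24 (edgeR adjusted p = 0.00631). Neither reached a fold change of 2, although their groups did not overlap. HIST1H1B (H1.5) overlapped between groups, at 8.68 to 21.5 (WT) and 9.55 to 16.6 (Delta-TRRAP). The testis gene HIST1H1T was called higher (log2 fold change 2.07 ± 0.45, edgeR adjusted p = 7.48e-04) on 1.93 to 6.16 and 10.8 to 19.1 normalized counts. It lies inside the annotated span of HIST1H2BC on the same strand, so reads of these genes may not be told apart.

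H2A and H2B form the dimers that flank the H3-H4 tetramer in the nucleosome. HIST1H2AC had 5689, 5424 and 5284 normalized counts in WT and 16869, 15688 and 17588.5 in Delta-TRRAP (log2 fold change 1.61 ± 0.06, edgeR adjusted p = 1.79e-12). HIST1H2AG, which encodes a common H2A protein, had 696, 703 and 668 in WT and 3347, 3478 and 3367 in Delta-TRRAP (log2 fold change 2.30 ± 0.05, edgeR adjusted p = 1.81e-14). Within each gene the libraries of a group lay close together and far from the other group. HIST1H2AI had 193, 181 and 185 in WT and 1025, 1034 and 929 in Delta-TRRAP (log2 fold change 2.42 ± 0.07, edgeR adjusted p = 4.70e-13). Its count is uncertain because 63.5% of its 50-base windows recur in other genes of the family and reads with more than 1 placement had been discarded. HIST3H2A, from the small cluster on distal chromosome 1q, had 1013, 1067 and 875 in WT and 1638, 1369 and 1478 in Delta-TRRAP. That is a log2 fold change of 0.60 ± 0.08 (edgeR adjusted p = 5.36e-06), under the fold threshold, although the groups did not overlap.

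HIST1H2AE and HIST1H2AK were called higher with log2 fold changes of 1.83 and 2.12, and HIST2H2AA3 and HIST2H2AA4 with 2.32 and 2.24. The last pair are near-identical copies on chromosome 1 that share 100% and 99.8% of their windows with the family, so their values cannot be assigned to either gene. HIST2H2AC was measured at 10.3 to 18.3 (WT) and 13.7 to 19.6 (Delta-TRRAP) normalized counts, which overlap (log2 fold change 0.05 ± 0.31). HIST1H2AH, HIST1H2AB and HIST1H2AL did not pass either, with log2 fold changes of 0.61, 1.08 and 0.97.

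H2B was the class with the most members and the most counts. HIST1H2BK, an H2B gene known to yield polyadenylated mRNA in differentiated cells, had 5537, 5368 and 5301 normalized counts in WT and 19085, 18447 and 18885.5 in Delta-TRRAP (log2 fold change 1.80 ± 0.05, edgeR adjusted p = 1.15e-13). HIST2H2BE had 815, 817 and 790.4 in WT and 4781, 5059 and 4958 in Delta-TRRAP (log2 fold change 2.61 ± 0.05, edgeR adjusted p = 5.05e-15). All 3 Delta-TRRAP libraries were more than 5 times every WT library for this gene. HIST1H2BJ had 2104, 1929 and 1803 in WT and 3852, 3639 and 3431 in Delta-TRRAP. Its groups did not overlap, and its log2 fold change of 0.90 ± 0.06 (edgeR adjusted p = 4.82e-09) was under the threshold of 1. Under library-size scaling it was 1.06 and was called.

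HIST1H2BD had 639, 637 and 666 normalized counts in WT and 2165, 2098 and 2279 in Delta-TRRAP (log2 fold change 1.75 ± 0.06, edgeR adjusted p = 7.24e-13). HIST1H2BC had 499, 473 and 447 in WT and 2129, 2129.7 and 1941 in Delta-TRRAP (log2 fold change 2.13 ± 0.06, edgeR adjusted p = 3.00e-13). Its annotated span holds HIST1H1T on its own strand and meets HFE and HIST1H4C on the other strand. HIST1H2BG had 299, 320.2 and 303 in WT and 1613, 1505 and 1659 in Delta-TRRAP (log2 fold change 2.37 ± 0.07, edgeR adjusted p = 1.20e-13). HIST1H2BF had 50.2, 51.1 and 56.5 in WT and 328, 419 and 324 in Delta-TRRAP (log2 fold change 2.76 ± 0.14, edgeR adjusted p = 1.05e-10). The lowest Delta-TRRAP library of each of these genes was more than 3 times the highest WT library.

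The remaining H2B members were HIST1H2BN, HIST1H2BH, HIST1H2BO, HIST1H2BE, HIST1H2BL, HIST1H2BB, HIST3H2BB, HIST2H2BF and the pseudogenes HIST2H2BC and HIST2H2BD, and all were called higher. HIST3H2BB had 24.6, 31.8 and 31.8 normalized counts in WT and 85.0, 78.3 and 88.7 in Delta-TRRAP (log2 fold change 1.51 ± 0.17, edgeR adjusted p = 1.42e-06). HIST1H2BE had the smallest of these log2 fold changes, 1.00 ± 0.13, and fell under the threshold when any of 4 single libraries was left out (WT replicate 1 or 3, Delta-TRRAP replicate 1 or 2, lowest value 0.91). HIST1H2BH, at 1.09 ± 0.14, fell to 0.98 without WT replicate 3. The pseudogenes HIST2H2BC and HIST2H2BD share 79.5% and 95% of their windows with the family, and their level is uncertain.

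**Figure D3:**
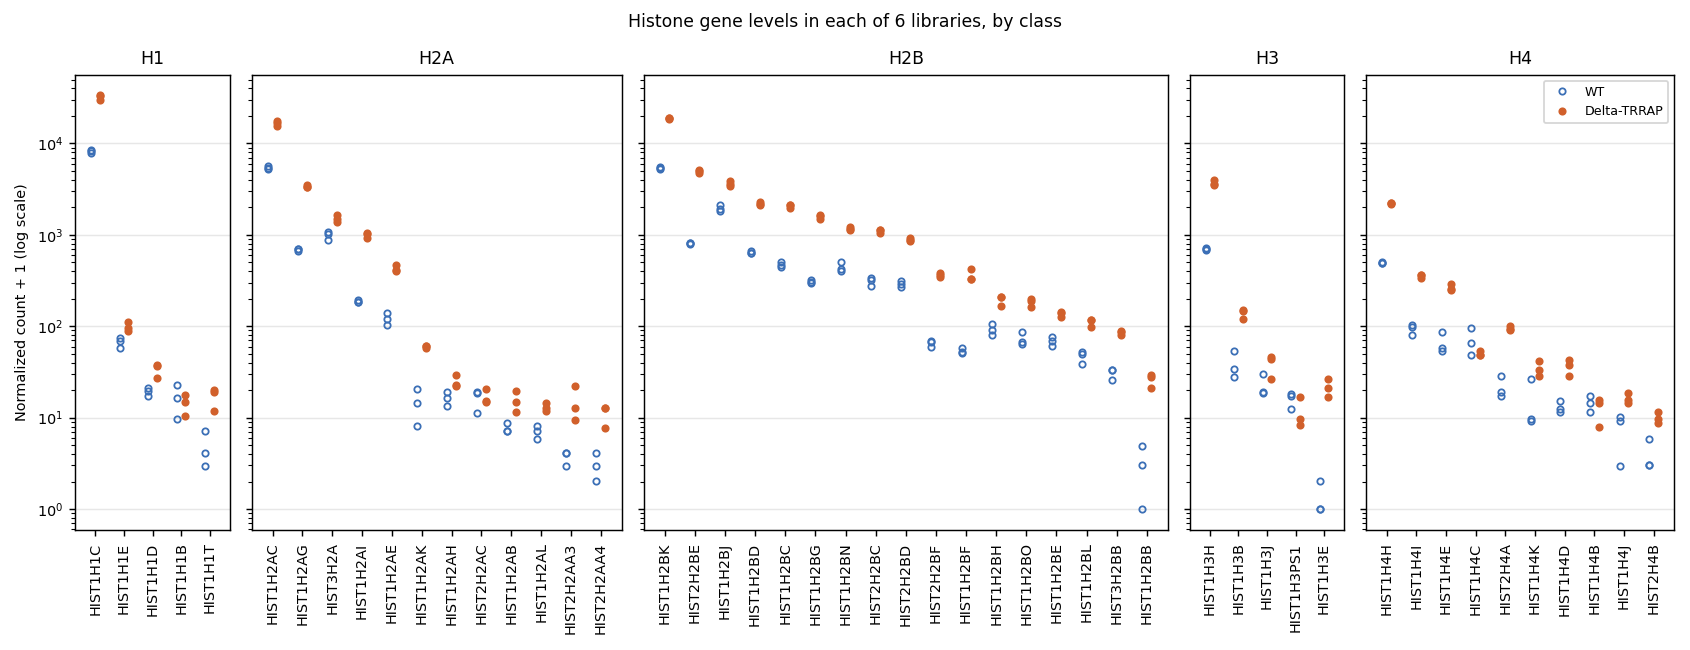
Normalized counts plus 1, on a log axis, of each histone gene in each of the 6 libraries, by class and in order of mean count; open points are WT and filled points Delta-TRRAP. The most abundant genes of each class separate by group, and HIST1H1B, HIST2H2AC, HIST1H3J, HIST1H3PS1, HIST1H4C and HIST1H4B are the 6 genes whose groups overlap.

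H3 and H4 form the tetramer at the centre of the nucleosome. HIST1H3H, which encodes the replicative histone H3.1, held 90.5% of the H3 counts in WT and 94.7% in Delta-TRRAP. It had 719, 689 and 704 normalized counts in WT and 3559, 3480.1 and 3979 in Delta-TRRAP (log2 fold change 2.38 ± 0.06, edgeR adjusted p = 6.88e-14). HIST1H3B, another H3.1 gene, had 52.2, 32.8 and 26.7 in WT and 145, 149.9 and 120.4 in Delta-TRRAP (log2 fold change 1.90 ± 0.19, edgeR adjusted p = 3.76e-07). Both rose without overlap. HIST1H3J had 17.4, 18.3 and 28.7 in WT and 45.0, 43 and 25.3 in Delta-TRRAP, and its log2 fold change of 0.82 ± 0.27 did not pass (edgeR adjusted p = 0.0144). The lowest Delta-TRRAP library of this gene lay under the highest WT library. HIST1H3J shares 40.3% of its exon bases with HIST1H2AM on the same strand, and its level is uncertain. Without WT replicate 3 its log2 fold change was 1.07, and without Delta-TRRAP replicate 3 it was 1.03, and both were called. HIST1H3E was called higher on 1 raw count over the WT libraries against 61 over the Delta-TRRAP libraries, a depth-scaled ratio of 60.4 with an exact binomial 95% interval of 10.4 to 2424 that covers counting error only.

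HIST1H4H held 62.7% of the H4 counts in WT and 71.7% in Delta-TRRAP. It had 491, 496 and 505 normalized counts in WT and 2150.7, 2215 and 2226 in Delta-TRRAP (log2 fold change 2.14 ± 0.05, edgeR adjusted p = 5.00e-14). HIST1H4I had 101, 97.4 and 80.1 in WT and 363, 338 and 366 in Delta-TRRAP (log2 fold change 1.93 ± 0.11, edgeR adjusted p = 3.19e-10). HIST1H4E had 85.0, 56.9 and 52.3 in WT and 257, 250.2 and 286 in Delta-TRRAP (log2 fold change 2.03 ± 0.15, edgeR adjusted p = 7.29e-09). All of these H4 genes encode the same protein, and their groups stood apart. HIST2H4A had 16.4, 18.3 and 27.7 in WT and 89.9, 91.7 and 99.3 in Delta-TRRAP (log2 fold change 2.16 ± 0.19, edgeR adjusted p = 9.96e-08), although 100% of its windows are shared with the family.

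The H4 class also held the members with the lowest fold changes among its coding genes. HIST1H4C, given in every library after its values were seen, had 94.2, 47.3 and 64.7 normalized counts in WT and 47.9, 52.5 and 47.5 in Delta-TRRAP. The groups overlapped and the log2 fold change was -0.47 ± 0.22 (edgeR adjusted p = 0.0702). HIST1H4B was measured at -0.20 ± 0.35 and the pseudogene HIST1H3PS1 at -0.50 ± 0.35, and with HIST1H1B at -0.18 ± 0.36 these are the 4 members with a negative value. HIST1H4K was called higher at 1.26 ± 0.35, and lost the call without WT replicate 2 or 3 or Delta-TRRAP replicate 1 or 2. HIST1H4D was called at 1.54 ± 0.27, whereas HIST1H4J and HIST2H4B did not pass at 1.24 ± 0.42 and 1.53 ± 0.48. HIST1H4K, HIST1H4J and HIST2H4B share 92.6%, 92.1% and 100% of their windows with the family, so their levels are uncertain.

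The members were also counted by features that the membership rule does not name. The rule is a count floor, and these features can bear on counts of poly(A)-selected reads with a single placement. Of the 16 members whose gene model reaches at least 100 bases past the stem-loop, 13 were called higher (median log2 fold change 1.79), and of the 30 others with a position, 19 were (median 1.45). Of the 7 genes commonly cited as making polyadenylated mRNA (HIST1H1C, HIST1H2AC, HIST1H2BC, HIST1H2BD, HIST1H2BJ, HIST1H2BK and HIST2H2BE), 6 were called higher, and of the other 42, 28 were. Of the 9 members that share at least 50% of their windows within the family 7 were called higher, and of the other 40, 27 were. The called members whose membership depended on Delta-TRRAP are included: HIST1H3E is among the 13, and HIST2H2AA3 and HIST2H2AA4 are among the 7. All of them are among the 28. Over all genes tested, 16.2% were called higher. These counts come from small groups that differ in level, and the differences between them were not tested.

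The promoters are relevant because H2A and H2B genes often stand head to head over a shared stretch of DNA. RefSeq (GRCh38.p14) promoters, 250 bases before to 50 after the start, were matched to 43 of the 49 members and searched on both strands. TATAAA was present in 62.8% of the matched members and in 11.5% of 35116 RefSeq promoters. CCAAT, bound by NF-Y, was present in 81.4% against 34.6%: it stood in all 5 H1, 11 H2A, 15 H2B and 3 H3 promoters matched and in 1 of 9 H4 promoters. The octamer ATTTGCAT, bound by POU2F1 with its coactivator in H2B promoters, was present in 39.5% against 1.77%. It stood in 6 of 11 H2A and 11 of 15 H2B promoters, and in 0 of 5 H1, 0 of 3 H3 and 0 of 9 H4 promoters. Where an H2A and an H2B gene stand head to head, a motif between their starts can be counted for both genes. The search covers these letters in these windows only.

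The family held 17 H2A-H2B pairs with divergent starts at most 500 bases apart, and in 10 of them both genes were members. The stretches between the starts of 2 pairs follow (hg38, plus strand), with matches to these 3 motifs on either strand in capitals. The first pair is the one with the most counts and the second the one whose genes differ most in fold change.
HIST1H2BC and HIST1H2AC, chr6:26123927-26124144: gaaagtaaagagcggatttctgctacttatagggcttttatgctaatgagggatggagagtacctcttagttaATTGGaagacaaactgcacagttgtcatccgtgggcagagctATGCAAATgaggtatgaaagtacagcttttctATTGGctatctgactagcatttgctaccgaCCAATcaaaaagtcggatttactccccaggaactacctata
HIST2H2BE and HIST2H2AC, chr1:149886683-149886917: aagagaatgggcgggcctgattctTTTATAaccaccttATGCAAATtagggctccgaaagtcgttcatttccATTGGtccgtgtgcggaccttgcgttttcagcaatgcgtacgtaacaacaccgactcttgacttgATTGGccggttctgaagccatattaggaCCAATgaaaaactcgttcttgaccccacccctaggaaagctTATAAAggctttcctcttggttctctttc
Each stretch holds 3 CCAAT matches and 1 octamer. Between these starts the first has 0 and the second 2 TATAAA matches. In the RefSeq promoter windows, which extend beyond the first stretch, HIST1H2AC and HIST1H2BC each had a TATAAA match.

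Across the 10 pairs, both genes were called higher in 6, a single gene in 4 and neither gene in 0. Over all genes tested, 16.2% were called higher. The 6 include the pairs HIST2H2AA3 with HIST2H2BD and HIST2H2AA4 with HIST2H2BC. These H2A genes are near-identical copies whose values cannot be assigned to either gene, and their membership depended on Delta-TRRAP. HIST1H2AC and HIST1H2BC rose side by side, with the log2 fold changes of 1.61 ± 0.06 and 2.13 ± 0.06 given above. HIST2H2BE rose by 2.61 ± 0.05 on the log2 scale while HIST2H2AC, across 235 bases, was at 0.05 ± 0.31. In the pair HIST1H2AG and HIST1H2BJ, 247 bases apart, the H2A gene had the larger value, 2.30 ± 0.05 against 0.90 ± 0.06. HIST1H2AI and HIST1H2BL were at 2.42 ± 0.07 and 1.26 ± 0.16, and HIST1H2AH and HIST1H2BK at 0.61 ± 0.27 and 1.80 ± 0.05. Genes over the same stretch thus had unequal log2 fold changes in either direction, and the difference within a pair was not tested.

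**Figure D4:**
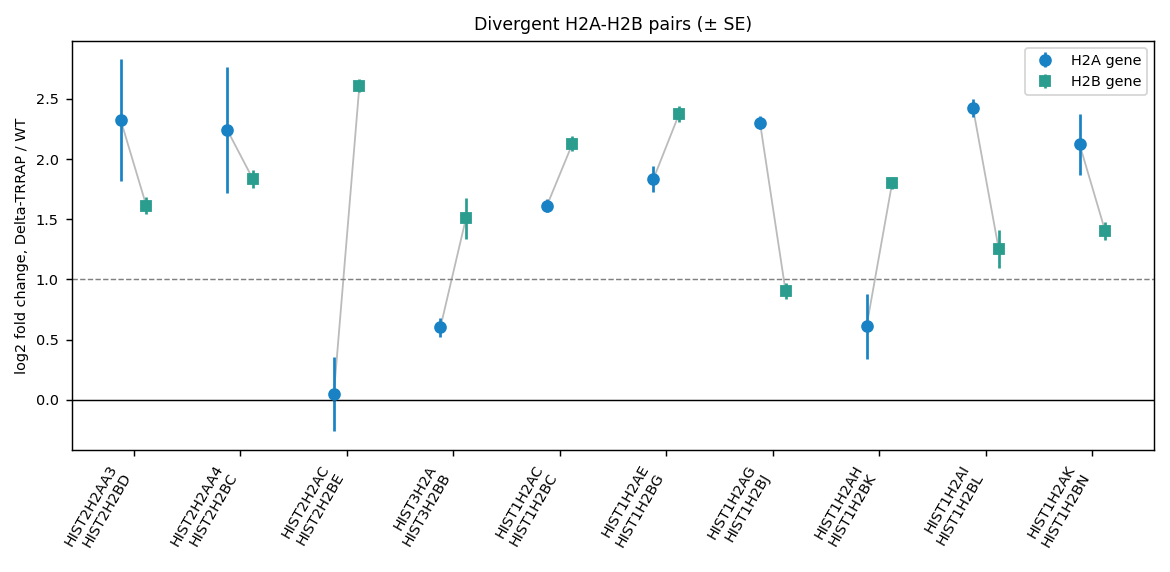
Log2 fold change of Delta-TRRAP over WT for the H2A gene (circles) and the H2B gene (squares) of the 10 divergent pairs in which both are members, with bars of 1 standard error. The dashed line marks a fold change of 2. The pair HIST2H2AC and HIST2H2BE differs most, at 0.05 and 2.61.

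The HIST1 locus also holds genes that are not histone genes. Between the first and last HIST1 genes (hg38 chr6:25723397-27893891, 2.17 Mb) 33 such genes were tested, and 8 (24.2%) were called higher and 1 lower, beside the 16.2% and 6.34% of all genes, with a median log2 fold change of 0.29. Of the 16 protein-coding ones, 2 were called higher (median 0.17). The 7 tested genes within 10 kb of a histone gene had a median of 1.93, and 5 of them were called higher. The 26 others had a median of 0.08, with 3 called higher and 1 lower. Along the locus the histone members form 3 groups more than 500 kb apart, in which 16 of 22, 3 of 5 and 7 of 11 were called higher.

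Of the 6 most abundant of these genes 3 were lower and 1 was higher on the adjusted p. HMGN4, a nucleosome-binding protein gene, had 6739, 6694 and 6452 normalized counts in WT and 4882, 4689 and 4992 in Delta-TRRAP (log2 fold change -0.45 ± 0.05, edgeR adjusted p = 8.28e-07). ABT1, which encodes a TATA-binding protein partner, had 3732, 3488 and 3355.5 in WT and 2317, 2044 and 2189 in Delta-TRRAP (-0.69 ± 0.06, edgeR adjusted p = 4.96e-08). Both were lower in every Delta-TRRAP library. ZNF184, a zinc finger gene, had 1651, 1512 and 1505 against 1215, 1199 and 1151 (log2 fold change -0.39 ± 0.06, edgeR adjusted p = 1.62e-05). TRIM38, a ubiquitin ligase gene, had 2204, 2256 and 2269.5 against 3099.9, 3208 and 3206 (0.50 ± 0.05, edgeR adjusted p = 1.86e-07). None of these 4 reached a fold change of 2. The noncoding HCG11 had 2825, 2965 and 2899.7 against 2509, 2631 and 2708 (log2 fold change -0.15 ± 0.05, edgeR adjusted p = 0.0167). BTN2A1, a butyrophilin gene, had 1358, 1309.8 and 1419 against 1634, 1555 and 1435 (log2 fold change 0.18 ± 0.06, edgeR adjusted p = 0.0141). Neither passed the adjusted p threshold. Under library-size scaling HCG11 was at 0.0098, and BTN2A1 passed at 0.34.

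**Figure D5:**
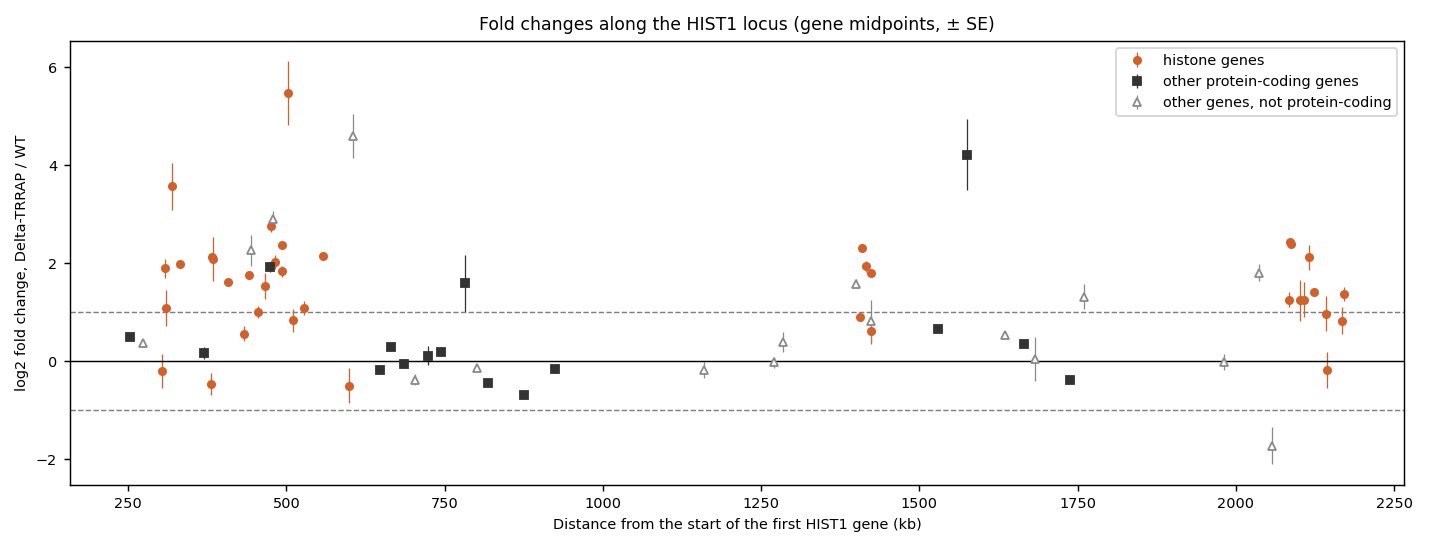
Log2 fold change of Delta-TRRAP over WT along the HIST1 locus, by distance in kb of the gene's midpoint from the start of the first HIST1 gene, for histone genes (circles), other protein-coding genes (squares) and other genes that are not protein-coding (triangles), with bars of 1 standard error. The histone genes form 3 groups with medians of 1.79, 1.80 and 1.26, and the protein-coding genes between them have a median of 0.17.

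The 5 called neighbours within 10 kb were AL353759.1, AL031777.3, AL031777.1, AL021917.1 and AL021807.1, named after their values were seen. AL031777.3, annotated as protein-coding, had 133, 111 and 132 normalized counts in WT and 434, 478 and 519.6 in Delta-TRRAP (log2 fold change 1.93 ± 0.10, edgeR adjusted p = 2.17e-10). In GENCODE release 44 its exons cover 85.3% of the exon bases of HIST1H2AD and 96.6% of those of HIST1H3D on the same strand. The union mode of counting leaves out a read that lies in exons of more than 1 gene, and HIST1H2AD and HIST1H3D, with raw totals of 2 and 0, are among the 40 genes that were not members. In the same way 71.0% of HIST1H2AM, with a raw total of 20, is covered by HIST1H3J. AL353759.1 lies across HIST1H2BD on the opposite strand, which the stranded counting keeps apart, and its log2 fold change was 2.26 ± 0.31.

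Around the other clusters, 2 of the 18 genes tested within 500 kb of the HIST2 members were called higher (11.1%, median log2 fold change 0.22), and 4 of 18 within 500 kb of the HIST3 members (22.2%, median 0.13). These shares lie around the 16.2% of all genes called higher. The 2 called near HIST2, named after their values were seen, were BOLA1 (log2 fold change 2.01) and AC243772.2 (2.18). Both overlap the span of a histone gene, as does FCGR1A, which was not called (0.39). Those called near HIST3 lay 45831 bases or more from a histone gene. None of the 9 protein-coding genes tested near HIST3 was called by edgeR, and 2 of them passed the adjusted p threshold in each direction.

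Genes that make, process or break down the stem-loop mRNA were read from a list of 35, all tested. Of these 1 was called higher and 3 lower. On the adjusted p alone 5 were higher (LSM11, XRN1, DIS3L2, GON4L and HINFP) and 19 lower, where 28.9% of all genes were lower. All 35 averaged 100 normalized counts or more. Of all genes at that level 42.1% passed downward and 26.5% upward, beside 54.3% downward and 5 of 35 upward in the list. Under library-size scaling 9 of the list were higher and 15 lower. SLBP, the stem-loop binding protein, had 8115, 8265 and 8074 normalized counts in WT and 5833, 5569 and 6297 in Delta-TRRAP (log2 fold change -0.47 ± 0.05, edgeR adjusted p = 1.45e-06). NPAT, the coactivator of histone gene transcription, had 3106, 3012 and 3329 against 2226, 2357 and 2177 (log2 fold change -0.48 ± 0.05, edgeR adjusted p = 1.23e-06). Every Delta-TRRAP library was below every WT library for both. CASP8AP2 (FLASH), which joins the U7 snRNP to the cleavage complex, had 4851, 4853 and 4774 against 3048, 3448 and 2830.4 (log2 fold change -0.63 ± 0.06, edgeR adjusted p = 3.05e-07). ZNF473 (ZFP100), which binds the stem-loop complex, had 3533, 3705 and 3771 against 2048, 2030.4 and 1813 (log2 fold change -0.90 ± 0.06, edgeR adjusted p = 1.59e-09).

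The U7-specific proteins LSM10 and LSM11 differed in direction. LSM10 had 2006, 1971 and 1747 normalized counts in WT and 1416.5, 1250.1 and 1217 in Delta-TRRAP (log2 fold change -0.56 ± 0.07, edgeR adjusted p = 2.79e-06). LSM11 had 759, 709 and 759.6 against 1524, 1486 and 1510.2, and was the member of the list called higher (log2 fold change 1.02 ± 0.05, edgeR adjusted p = 2.68e-10). The 3 genes called lower were SNRPE and SNRPG, Sm proteins shared with the spliceosomal snRNPs, at -1.22 ± 0.08 and -1.49 ± 0.08, and CCNE1, the cyclin E gene whose kinase acts on NPAT, at -1.24 ± 0.05.

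DNA replication genes, with which the stem-loop histone mRNAs are known to be timed, were examined beside the histone genes. Of 30 on the list none was called in either direction by edgeR, DESeq2 or limma-voom. At an unadjusted p of 0.05 edgeR placed 3 higher and 23 lower, and on the adjusted p 2 were higher and 21 lower. All 30 averaged 100 normalized counts or more, and 70.0% of them passed downward, beside the 42.1% of all genes at that level. Upward, 26.5% of all genes at that level passed. The median log2 fold change of the list was -0.35, and -0.19 with 5 higher and 17 lower under library-size scaling. MCM4, a subunit of the replicative helicase, had 21485, 21508 and 21647 normalized counts in WT and 12737, 12900.4 and 12289 in Delta-TRRAP (log2 fold change -0.77 ± 0.05, edgeR adjusted p = 1.35e-09). LIG1, the ligase that joins Okazaki fragments, had 3422, 3445 and 3534 against 2099, 2113 and 2063 (log2 fold change -0.73 ± 0.05, edgeR adjusted p = 2.26e-09).

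Histone chaperones carry newly made histones to DNA. Of 24 on the list, which shares MCM2 with the replication list, none was called by edgeR, DESeq2 or limma-voom. On the adjusted p alone 0 were higher and 10 lower, with a median log2 fold change of -0.17, and at an unadjusted p of 0.05 edgeR placed 0 higher and 14 lower. The 10 are 41.7% of the list, which is close to the 42.1% over all genes averaging 100 normalized counts or more. Upward, 0 of the 24 passed, where 26.5% of all genes at that level did. IPO4, with a mean of 12.9, lies below that level. Under library-size scaling the median was -0.015, with 2 higher and 6 lower on the adjusted p. HAT1, the enzyme that acetylates new H4, had 25225, 22892 and 20849.5 normalized counts in WT and 13226, 12214 and 12782 in Delta-TRRAP (log2 fold change -0.85 ± 0.06, edgeR adjusted p = 1.44e-08). ANP32E, an H2A.Z chaperone, had 15103, 15389.9 and 14966 against 9176, 9362 and 10139 (log2 fold change -0.66 ± 0.05, edgeR adjusted p = 1.94e-08). Both were lower in all Delta-TRRAP libraries without reaching a fold change of 2.

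Of the variant histone genes outside the clusters, 4 were read. H2AFZ, the H2A.Z gene, was at -0.83 ± 0.07 and H2AFX at -0.60 ± 0.05 on the log2 scale, and the H3.3 genes H3F3A and H3F3B were at -0.27 ± 0.06 and -0.41 ± 0.05, all past the adjusted p threshold of edgeR and under a fold change of 2. Of all genes averaging 100 normalized counts or more, 42.1% passed downward. Under library-size scaling H3F3A, at -0.12, no longer passed.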

How the data were processed

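RNA of the 6 libraries had been poly(A)-selected and sequenced with a stranded kit. The authors deposited raw counts of reads per gene: STAR placed the reads on hg38, multiply placed reads were dropped, and HTSeq 2.0.2 assigned the rest to GENCODE genes (reverse strand, union mode). The authors' further deposited tables of normalized signal and of their own comparison (fold changes and p-values) were not used here.

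Counts were tested with edgeR 4.0.16 (R 4.3.3; TMM, quasi-likelihood F test, group as the only term) over the 19114 genes that averaged 5 or more normalized counts, with Benjamini-Hochberg adjustment. The thresholds, 0.01 for the adjusted p and 2 for the fold change, follow the study. Errors are SD over 3 libraries or SE of log2 fold changes. The script was tested on simulated data.

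Alternatives were DESeq2 1.42.0, limma-voom (limma 3.58.1), other scalings, filters and fold thresholds, a replicate block, and leaving out each library. The replicate numbers did not pair the libraries (residual correlations of 0.0447, -0.0735 and -0.131). Libraries of a group were not duplicates (chi-square per degree of freedom 5.43 to 17.5).

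Positions, gene models and exon lengths came from GENCODE release 44, another release than the authors', and 47 of 49 member IDs matched. HIST2H2AA3 and HIST2H2AA4 were placed by RefSeq. Shared sequence was counted over 50-base windows of exons within the family. The members and all gene lists were chosen with earlier results of these data known. Named with values in every library were the 3 members of each class with the most counts per kilobase, the 2 called members with the largest fold change at a mean of at least 20, the HIST3 members, 7 genes cited as polyadenylated, 6 processing factors, the 6 most abundant other genes of the HIST1 locus, and 2 genes each of the replication and chaperone lists. HIST1H4C and AL031777.3 were added after their values were seen.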

Additional observations from a re-analysis of the deposited data

How the results depend on the processing

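The number of histone genes called higher was 34 with DESeq2, with RLE scaling and with the replicate number as a block. It was 35 with limma-voom and without a filter on low counts, 37 at a fold change of 1.5 and 38 under library-size scaling. At a minimum mean normalized count of 50 it was 26 of the 30 members tested, and it was 31 to 34 when a library was left out. None was called lower in any of these. Of all genes, 2887 of 19114 were called higher with DESeq2 and 3599 of 19161 under library-size scaling. At a fold change of 1.5, 4080 of 19114 were called higher and 2722 lower. At the minimum of 50, 1147 of 12699 were called higher. Of the 34 called histone genes 31 kept direction and call in every alternative that tested them and 0 reversed. The others were HIST1H2BE, HIST1H2BH and HIST1H4K. The median log2 fold change was 1.77 under library-size scaling, 1.83 at the minimum of 50 and 1.576 to 1.73 when a library was left out. Under library-size scaling the log2 ratio of the summed classes was 2.12 for H1, 1.78 for H2A, 1.93 for H2B, 2.47 for H3 and 2.11 for H4. At the minimum of 50, which tests fewer genes, 4 other genes of the HIST1 locus were called higher and 0 lower, and at a fold change of 1.5, 2 were lower. That threshold also called 10 genes of the stem-loop mRNA list, 3 replication genes and 3 chaperones. With the replicate block, as in the pairing checks, these lists gave 4, 0 and 0, and no call of a count changed. Direction turned only for uncalled genes: with single libraries left out, HIST1H1B ranged from -0.48 to 0.135 (0.0132 without Delta-TRRAP replicate 2), HIST2H2AC from -0.18 to 0.19 (-0.13 without Delta-TRRAP replicate 1) and HIST1H4B from -0.40 to 0.0675. The cause was not tested. Of the 25 members under 100 normalized counts 14 passed the adjusted p, among them the 5 called members whose membership depended on Delta-TRRAP. The genes that lost a call averaged 102 (HIST1H2BE), 143 (HIST1H2BH) and 23.9 (HIST1H4K).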
